A study of Mus musculus with 18 samples.

Results

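The cytochrome P450 genes described here are the genes of the deposited kidney table whose names begin with Cyp, a family number, a subfamily letter and a member number. Names ending in -ps were left out, as were Cyp4a12a, Cyp2e1, Cyp2j13, Cyp24a1 and Cyp27b1. The rule found 77 of the 32675 genes, and no expression value entered it. Of the 95 names of this form, 13 end in -ps and 5 are those set apart. The names Cyp4b1-ps2 and Cyp2j7-ps2 end in -ps2 and stayed among the 77.

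Right kidneys of 18 wild type male C57BL/6 mice, 6 weeks old when the experiment began, were analysed by poly(A) RNA sequencing. The Ctrl mice (n = 6) were handled each day and met no aggressor. The PBS mice (n = 6) underwent chronic social defeat stress (CSDS), that is 10 min of daily attack by an aggressive male of another strain for 14 days, and received phosphate-buffered saline. The FLX mice (n = 6) underwent the same defeat and received fluoxetine, a serotonin reuptake inhibitor, intraperitoneally each day at 10 mg per kg. PBS versus Ctrl therefore compares defeat plus saline injection with handling alone, and FLX versus PBS compares the drug with its vehicle under defeat. Each sample is the whole kidney of a separate mouse, and fewer cells of a type and less RNA per cell cannot be told apart in such samples.

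Cytochromes P450 are heme enzymes that insert an oxygen atom into their substrates, with electrons supplied by P450 oxidoreductase in the endoplasmic reticulum or by ferredoxin in mitochondria. Families 1 to 3 are known mainly for drugs and other foreign compounds, family 4 for fatty acids, and the higher-numbered families for steroids, bile acids, retinoic acid and vitamin D. In the kidney, the tubule cells hold most of the P450 enzymes, and arachidonic acid products of the Cyp4a and Cyp2c enzymes are known to act on vessel tone and salt transport.

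The study removed 1 PBS mouse with high inflammatory genes, which the sources used here do not name. PBS mouse 6 was taken to be that mouse because its S100a8 level, a neutrophil marker, was 22.1 FPKM (sequenced fragments scaled to transcript length and to library size), against 1.82 to 7.65 FPKM in PBS mice 1 to 5. This choice was read from values and not from a label, so tests use PBS mice 1 to 5, and the values with all 6 are given for the members and partners that were called. Total counts were 72149987 to 78711121 in the Ctrl and PBS mice, and the median of the FLX mice was 51581644. The FLX mice were split: mice 1 and 2 had 79061296 and 74093215 counts, and mice 3 to 6 had 48928823 to 52073640. Markers of the proximal tubule, the main cell type of the kidney cortex, were high in all mice, and their summed level was 1514 to 1812 FPKM in Ctrl mice, 1564 to 1877 FPKM in PBS mice 1 to 5, 1518 to 1839 FPKM in FLX mice and 887 FPKM in PBS mouse 6. Neutrophil markers summed to 1.03 to 3.09 FPKM in Ctrl mice, 6.77 to 25.7 FPKM in PBS mice 1 to 5 and 0.166 to 4.95 FPKM in FLX mice, and 3 of the 5 tested were higher in PBS than in Ctrl mice. Fat markers ranged from 1.299 to 631 FPKM over the mice, with the highest sums in PBS mouse 5 and FLX mouse 5 (468 FPKM). The part of these marker levels in the results below was not tested, apart from the fits without PBS mouse 5 and FLX mouse 5.

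Of the 6 members that passed the test in some comparison, Cyp4b1 and Cyp1a1 had an entry in the RefSeq promoter table of GRCm38.p6, which matched 55 of the 77 members. Their 250 bases before the start are shown because these genes, with Cyp2d22 and Cyp4a14, carry the changes below. Capitals mark TGTTCT, the core of the glucocorticoid response element, searched on both strands together with AGGTCA of nuclear receptors, TNGCGTG of the aryl hydrocarbon receptor and TTATGTAA of the Dbp family.
Cyp4b1 (chr4:115647722-115647971, minus strand): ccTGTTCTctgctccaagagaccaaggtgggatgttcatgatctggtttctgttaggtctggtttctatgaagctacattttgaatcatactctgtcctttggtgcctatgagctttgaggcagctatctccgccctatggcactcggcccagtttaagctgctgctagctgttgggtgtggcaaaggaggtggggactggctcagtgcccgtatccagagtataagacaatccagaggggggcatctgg
Cyp1a1 (chr9:57697363-57697612, plus strand): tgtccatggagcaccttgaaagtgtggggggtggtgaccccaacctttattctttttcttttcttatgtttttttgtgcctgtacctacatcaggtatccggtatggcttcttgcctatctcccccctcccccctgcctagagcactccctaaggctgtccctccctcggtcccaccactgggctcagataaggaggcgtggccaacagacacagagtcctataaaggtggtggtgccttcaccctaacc
The Cyp4b1 window held TGTTCT 248 to 243 bases before the start and no other match. The Cyp1a1 window held no match. It precedes the start in the RefSeq promoter table and lies inside the longer Cyp1a1 gene interval given below. Bases farther upstream were not searched for either gene. Over all 32851 promoters of the table, 16.1% held TGTTCT, 14.02% AGGTCA, 4.10% TNGCGTG and 0.819% TTATGTAA. A match is a description of letters and not a site.

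The kidney used few of the 77 genes at high level. A mean of 100 FPKM or more over the 18 mice was seen for 5 members, 10 to 100 FPKM for 9, 1 to 10 FPKM for 16, 0.1 to 1 FPKM for 16 and under 0.1 FPKM for 31. A count was present in all 18 mice for 40 members and in 1 mouse only for 6. The filter on low counts passed 50 members, and the other 27 were not tested. The highest mean was that of Cyp4b1 (764 FPKM), a fatty acid hydroxylase that also acts on foreign compounds. Cyp2j5 (476 FPKM), an arachidonic acid epoxygenase of the kidney, came next. Cyp4a10 (208 FPKM), Cyp2a4 (202 FPKM) and Cyp4a14 (157 FPKM) followed. These means include PBS mouse 6, at 841 FPKM for Cyp4a10 and 1357 FPKM for Cyp4a14, and the order of these genes depends on it. Without that mouse, group means of Cyp4a14 were 51.3 FPKM in Ctrl, 145 FPKM in PBS and 73.7 FPKM in FLX mice. For Cyp2j11 they were 104, 101 and 106 FPKM, for Cyp4a10 160, 184 and 170 FPKM, and for Cyp2a4 241, 177 and 208 FPKM. Cyp3a11 and Cyp2c29, known from the liver, had group means under 0.1 FPKM. Cyp7a1, the first enzyme of bile acid synthesis, was at 0.0107 FPKM in PBS mouse 6 and at 0 in every other mouse. The steroid synthesis genes Cyp11a1, Cyp11b1, Cyp11b2, Cyp17a1 and Cyp21a1 had means of 0.00449 to 0.0691 FPKM. Cyp11a1, Cyp11b1, Cyp11b2 and Cyp21a1 were highest in PBS mouse 5 (0.324, 0.420, 0.0808 and 0.518 FPKM). Cyp17a1 was highest in Ctrl mouse 6 (0.300 FPKM).

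The summed level of the 77 genes was 2085 to 2739 FPKM in Ctrl mice (median 2589), 1845 to 1924 FPKM in PBS mice 1 to 5 (median 1877) and 1934 to 2601 FPKM in FLX mice (median 2392). Without Cyp4b1, the medians were 1491 FPKM in Ctrl, 1505 FPKM in PBS and 1539 FPKM in FLX mice. Cyp4b1 alone made up 31.1% to 47.0% of the sum in Ctrl mice, 18.1% to 25.7% in PBS mice 1 to 5 and 27.3% to 40.9% in FLX mice. In PBS mouse 6 the sum was 3424 FPKM, and Cyp4a14 held 39.6% of it.

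**Figure D1:**
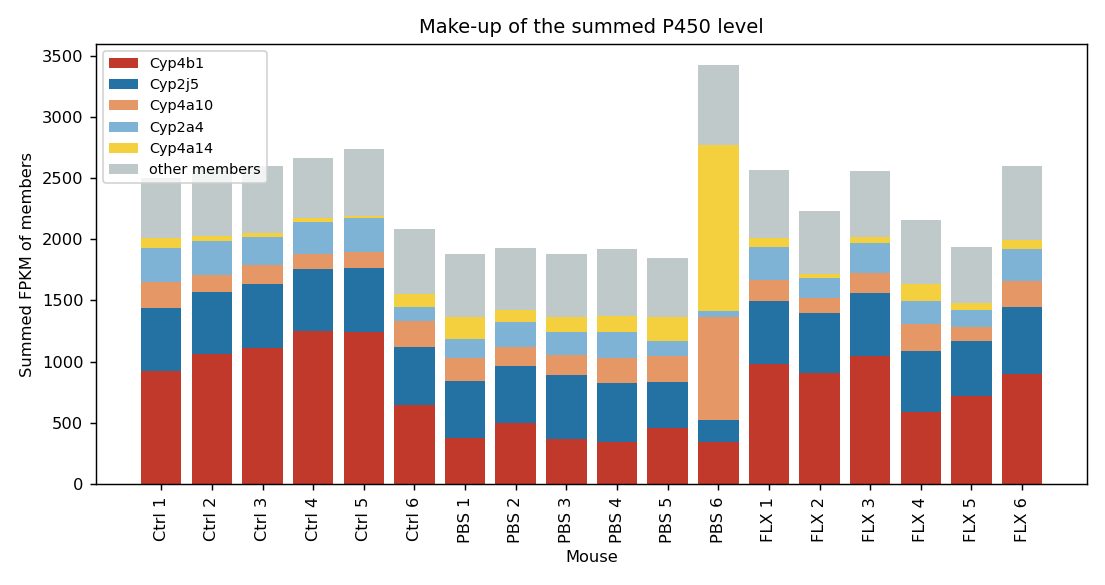
Summed FPKM of the 77 P450 genes in each of the 18 mice (vertical axis, FPKM), stacked by the 5 members of highest mean level and all other members. The Cyp4b1 part is shorter in each PBS mouse (346 to 495 FPKM) than in any Ctrl or FLX mouse (589 FPKM or more), and PBS mouse 6 stands apart by its Cyp4a14 and Cyp4a10 parts.

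In PBS versus Ctrl, Cyp1a1, Cyp2d22 and Cyp4a14 rose, while Cyp4b1 and the pseudogene Cyp4b1-ps2 fell. These are 3 higher and 2 lower of the 50 members tested by edgeR's quasi-likelihood test at an adjusted p under 0.05, beside 2.14% of all 20251 genes called higher and 1.67% called lower. The median log2 fold change of the members was 0.0071, beside -0.0078 over all genes. A positive value was seen for 26 members and a negative one for 24. With all 6 PBS mice 5 members passed, beside 4.28% of all genes, with Cyp2j7 in place of Cyp1a1. At the study's own threshold (unadjusted p under 0.05 and an absolute log2 fold change over 1) 6 members passed, beside 3.28% of all genes. These were Cyp1a1, Cyp4a14, Cyp4b1 and Cyp4b1-ps2 with the low-level genes Cyp2b10 and Cyp2d10. The FPKM ranges of PBS mice 1 to 5 and Ctrl mice did not overlap for 7 members, beside 3.52% of all genes.

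**Figure D2:**
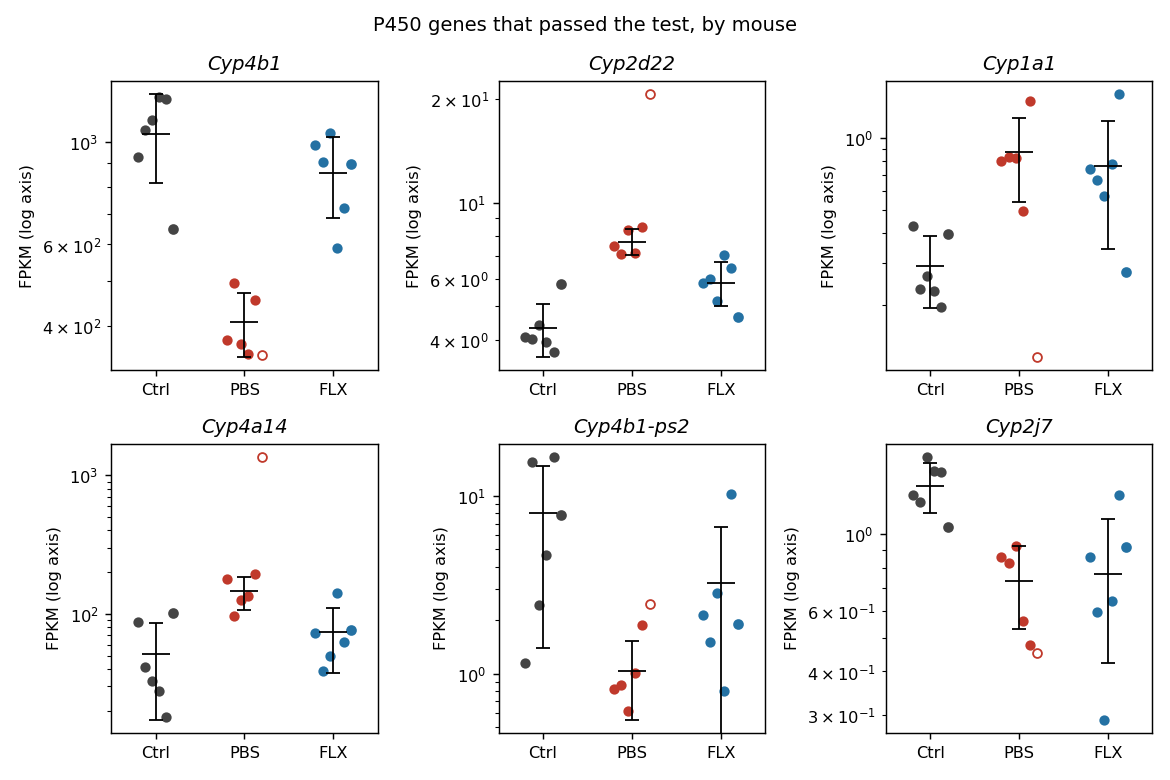
FPKM (log axis) of the 6 members with an adjusted p under 0.05 in some comparison, 1 point a mouse, in Ctrl, PBS and FLX mice. Bars are mean ± SD, the open point is PBS mouse 6, and the PBS bar is over mice 1 to 5. The Cyp4b1 points of all 6 PBS mice lie below those of both other groups.

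Cyp4b1 (ENSMUSG00000028713, chr4:115624725-115647723, minus strand) showed the clearest change among the abundant members. Ctrl mice ranged from 649 to 1253 FPKM with a median of 1089 FPKM, and FLX mice from 589 to 1044 FPKM with a median of 900 FPKM. PBS mice 1 to 5 were at 372, 495, 365, 348 and 455 FPKM, and PBS mouse 6 at 346 FPKM. All 6 PBS mice were below every mouse of the other groups. In PBS versus Ctrl its log2 fold change came to -1.35 ± 0.18 (SE, adjusted p = 0.000433), a 2.55-fold lower level, and -1.40 with all 6 PBS mice (adjusted p = 0.000309). The lowest Ctrl value was that of Ctrl mouse 6.

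Cyp4b1-ps2 (ENSMUSG00000083457, chr4:115582286-115583144, minus strand) is an unprocessed pseudogene in the same cluster. It was at 1.15 to 16.6 FPKM in Ctrl mice (median 6.23 FPKM) and at 0.796 to 10.2 FPKM in FLX mice (median 2.02 FPKM). PBS mice 1 to 5 were at 0.821, 0.866, 0.618, 1.01 and 1.88 FPKM, so the groups overlapped at the low Ctrl values. On the log2 scale it fell by 2.95 ± 0.71 in PBS mice relative to Ctrl mice (adjusted p = 0.0260), and by 2.67 with all 6 PBS mice (adjusted p = 0.0277). Without Ctrl mouse 2 or 5, or PBS mouse 1, 2, 3 or 4, the adjusted p was 0.0548 to 0.0756. Of its 284 windows of 50 bases, 34.2% also occur in Cyp4b1 transcripts, while 4.22% of the Cyp4b1 windows occur in Cyp4b1-ps2. Reads may thus be split between these genes, and the pseudogene value is uncertain.

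Cyp4a14 (ENSMUSG00000028715, chr4:115486200-115496142, minus strand), an omega-hydroxylase of fatty acids and a known target of the receptor PPARα, went the other way in the same gene cluster. Ctrl mice ranged from 17.98 to 101 FPKM (median 37.1 FPKM) and FLX mice from 38.5 to 142 FPKM (median 67.5 FPKM). PBS mice 1 to 5 were at 177, 96.0, 127, 135 and 193 FPKM, and PBS mouse 6 at 1357 FPKM. The highest Ctrl mouse lay above the lowest PBS mouse. Relative to Ctrl, PBS mice were higher by 1.51 ± 0.38 on the log2 scale (adjusted p = 0.0328), and by 2.73 with all 6 PBS mice (adjusted p = 0.0183). The call rested on single mice: without Ctrl mouse 2, 4 or 5, or PBS mouse 1, 4 or 5, the adjusted p was 0.0627 to 0.0874.

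The neighbours Cyp4a10 and Cyp4a31, also omega-hydroxylases, passed no test. Cyp4a10 was at 120 to 210 FPKM in Ctrl mice, 153 to 217 FPKM in PBS mice 1 to 5 and 113 to 224 FPKM in FLX mice, and at 841 FPKM in PBS mouse 6. Its PBS versus Ctrl log2 fold change came to 0.20 ± 0.18 (adjusted p = 0.600). Cyp4a31 was at 66.5 to 106 FPKM in Ctrl, 73.6 to 110 FPKM in PBS mice 1 to 5 and 57.4 to 106 FPKM in FLX mice. Of the Cyp4a10 windows of 50 bases, 29.8% occur in other genes, 24.5% in Cyp4a32, so their counts are uncertain. The value was 0.235% for Cyp4a14. The summed level of Cyp4a10, Cyp4a14, Cyp4a31 and Cyp4a32 was 221 to 400 FPKM in Ctrl, 327 to 527 FPKM in PBS mice 1 to 5 and 234 to 454 FPKM in FLX mice. Over the 19 members of family 4, 1 rose and 2 fell among the 15 tested in PBS versus Ctrl, beside 2.14% and 1.67% of all genes. Cyp4f14, a leukotriene hydroxylase, reached 1.65-fold with groups that did not overlap (adjusted p = 0.0693).

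Cyp2d22 (ENSMUSG00000061740, chr15:82370527-82380260, minus strand), a mouse member of the drug-metabolizing Cyp2d subfamily, rose with little spread. Ctrl mice were at 3.67 to 5.79 FPKM (median 4.05 FPKM) and FLX mice at 4.64 to 7.03 FPKM (median 5.93 FPKM). PBS mice 1 to 5 were at 7.49, 7.08, 8.30, 7.14 and 8.51 FPKM, and PBS mouse 6 at 20.6 FPKM. All PBS mice were above all Ctrl and all FLX mice. PBS versus Ctrl gave a log2 fold change of 0.84 ± 0.11 (adjusted p = 0.000331), which stayed past the threshold in all 29 alternatives, where the adjusted p was at most 0.0111. Its relatives were not called. Cyp2d26 was at 49.5 to 94.1 FPKM in Ctrl and 60.0 to 93.3 FPKM in PBS mice 1 to 5 (adjusted p = 0.196, and 0.0460 without Ctrl mouse 6). Cyp2d9 was at 45.8 to 63.6 FPKM in Ctrl and 41.0 to 45.1 FPKM in PBS mice 1 to 5, with ranges apart by a small gap (adjusted p = 0.204, and 0.0317 without FLX mouse 5). Other genes held 4.13% of the Cyp2d22, 9.49% of the Cyp2d26 and 21.8% of the Cyp2d9 windows.

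Cyp1a1 (ENSMUSG00000032315, chr9:57687928-57703824, plus strand), the main target of the aryl hydrocarbon receptor, rose at a low level. Ctrl mice were at 0.196 to 0.428 FPKM (median 0.248 FPKM), or 49 to 109 counts. PBS mice 1 to 5 were at 0.803, 0.834, 0.827, 0.497 and 1.43 FPKM, and PBS mouse 6 at 0.121 FPKM, below every other mouse. FLX mice were at 0.276 to 1.53 FPKM (median 0.704 FPKM). On the log2 scale, PBS mice exceeded Ctrl mice by 1.58 ± 0.34 (adjusted p = 0.0142) and FLX mice exceeded them by 1.29 ± 0.33 (adjusted p = 0.0380). With all 6 PBS mice neither passed (adjusted p = 0.0816 and 0.126). The highest values, in PBS mouse 5 and FLX mouse 5, fell in the mice with the highest fat markers. Without these, the adjusted p was 0.0147 in PBS versus Ctrl and 0.0774 in FLX versus Ctrl. The latter call was also lost without Ctrl mouse 2, 4 or 5, or FLX mouse 1, 2, 4 or 5, with an adjusted p of 0.0553 to 0.0964. The other family 1 member, Cyp1b1, was at 2.29 to 4.82 FPKM in Ctrl, 3.03 to 5.08 FPKM in PBS mice 1 to 5 and 3.62 to 8.34 FPKM in FLX mice and was not called, although DESeq2 and edgeR without Ctrl mouse 3 called it in FLX versus Ctrl.

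Cyp2j7 (ENSMUSG00000081362, chr4:96195197-96236659, minus strand), of the epoxygenase subfamily, was at 1.05 to 1.68 FPKM in Ctrl and 0.290 to 1.305 FPKM in FLX mice. PBS mice 1 to 5 were at 0.858, 0.827, 0.925, 0.561 and 0.479 FPKM, all below the Ctrl mice. In PBS versus Ctrl, it stood at -0.91 ± 0.29 on the log2 scale (adjusted p = 0.0860), and at -1.02 with all 6 PBS mice (adjusted p = 0.0471). Its log2 fold change in FLX versus Ctrl was similar, at -0.94 ± 0.27 (adjusted p = 0.0616). The abundant members of the subfamily passed no test. Cyp2j5 was at 474 to 529 FPKM in Ctrl, 377 to 528 FPKM in PBS mice 1 to 5 and 449 to 550 FPKM in FLX mice, with a log2 fold change in PBS versus Ctrl of -0.12 ± 0.086 (adjusted p = 0.509). Cyp2j11 was at 77.4 to 113 FPKM in Ctrl, 83.9 to 120 FPKM in PBS mice 1 to 5 and 91.5 to 119 FPKM in FLX mice.

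In FLX versus PBS, Cyp4b1 was higher and Cyp2d22 lower, the reverse of their directions in PBS versus Ctrl. Both comparisons share the PBS mice, so opposite signs are not independent. For Cyp4b1 the log2 fold change was 0.99 ± 0.18 (adjusted p = 0.0157), a 1.99-fold higher level, and 1.04 with all 6 PBS mice (adjusted p = 0.0107). Without PBS mouse 4 its adjusted p was 0.0530. For Cyp2d22 it was -0.49 ± 0.11 (adjusted p = 0.0438), and -0.82 with all 6 PBS mice (adjusted p = 0.0842). The call of Cyp2d22 was lost in 23 of 30 alternatives, and held without Ctrl mouse 3, Ctrl mouse 6 or FLX mouse 4 but not without any other single mouse (adjusted p = 0.0502 to 0.104). The 1 member called higher stands beside 0.306% of all genes and the 1 called lower beside 0.420%. With all 6 PBS mice, 1 member passed, beside 0.557% of all genes. The study's threshold took 5 members, beside 1.90% of all genes: Cyp4a14, Cyp4b1-ps2 and the low-level Cyp2b23, Cyp2c68 and Cyp2d10. The ranges of FLX and PBS mice 1 to 5 did not overlap for Cyp4b1 and Cyp2d22 alone, beside 2.92% of all genes. The median log2 fold change was -0.13 for the members and -0.0027 for all genes.

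Cyp4a14 was lower in FLX than in PBS mice by a log2 fold change of -1.09 ± 0.38, which did not pass the test (adjusted p = 0.235). For Cyp4b1-ps2 the value was 1.52 ± 0.68 (adjusted p = 0.407), and for Cyp1a1 -0.29 ± 0.34 (adjusted p = 0.838). Whether the drug's effect on any of these differed from its effect on Cyp4b1 was not tested.

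In FLX versus Ctrl, Cyp1a1 was the member called higher, beside 2.08% of all genes. No member was called lower by edgeR with TMM scaling and all Ctrl and FLX mice, beside 1.59% of all genes. At an unadjusted p under 0.05, 7 were lower, DESeq2 called 4 lower, and edgeR with upper-quartile scaling called Cyp4f13 lower. With all 6 PBS mice in the fit no member was called, beside 1.77% of all genes, and 3 were higher and 7 lower at an unadjusted p under 0.05. Shares of all genes at the unadjusted p, with DESeq2 and with upper-quartile scaling are not given here. Those member counts are therefore not read as a result about the members. At the study's threshold Cyp1a1 and Cyp4b1-ps2 passed, beside 2.24% of all genes. No member had ranges that did not overlap, beside 3.40% of all genes. The log2 fold change of Cyp4b1 came to -0.36 ± 0.17 (adjusted p = 0.231), that of Cyp4a14 to 0.42 ± 0.36 (adjusted p = 0.556) and that of Cyp2d22 to 0.35 ± 0.10 (adjusted p = 0.0665). The median of the members was -0.047, and that of all genes -0.0092.

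**Figure D3:**
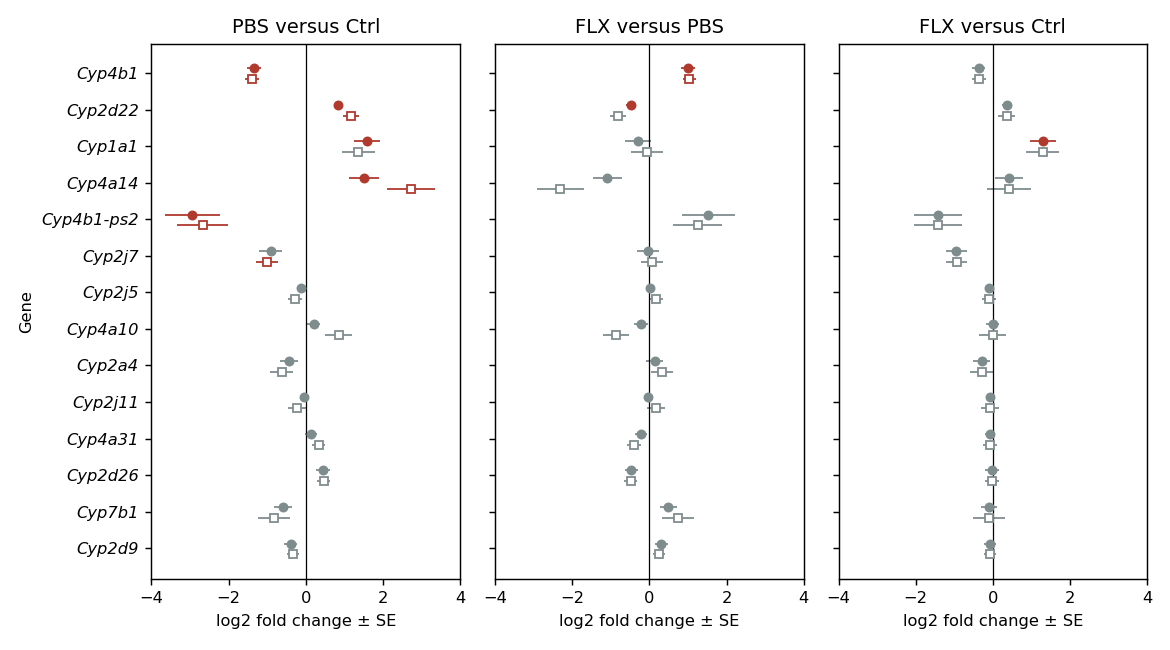
Log2 fold changes (± SE, horizontal axis) of the 14 members named by call or by level, in PBS versus Ctrl, FLX versus PBS and FLX versus Ctrl. Filled circles use PBS mice 1 to 5, open squares all 6, and red marks an adjusted p under 0.05. Cyp4b1 is red in both comparisons with the PBS mice and lies at -0.36 in FLX versus Ctrl.

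Among the remaining groups of members, no gene was called in the fit with PBS mice 1 to 5. Cyp7b1, which hydroxylates oxysterols and steroids, was at 53.8 to 82.2 FPKM in Ctrl mice, 31.6 to 53.3 FPKM in PBS mice 1 to 5 and 32.5 to 99.6 FPKM in FLX mice. Its PBS and Ctrl ranges did not overlap, but the log2 fold change of -0.59 ± 0.23 had an adjusted p of 0.165. Cyp27a1, the mitochondrial sterol 27-hydroxylase, was at 14.4 to 18.9 FPKM in Ctrl, 15.7 to 18.4 FPKM in PBS mice 1 to 5 and 16.2 to 19.8 FPKM in FLX mice, a narrow range in each group. Cyp2a4, a steroid 15α-hydroxylase, was at 120 to 278 FPKM in Ctrl, 122 to 212 FPKM in PBS mice 1 to 5 and 139 to 266 FPKM in FLX mice (adjusted p = 0.336 in PBS versus Ctrl), and 38.0% of its windows occur in other genes, mostly Cyp2a5. Cyp26b1, which breaks down retinoic acid, was at 0.861 to 3.11 FPKM in Ctrl and 0.796 to 1.34 FPKM in PBS mice 1 to 5. Of the 8 Cyp2c members, 3 were tested, and Cyp2c23, an epoxygenase of the kidney, led them with 9.51 to 12.9 FPKM in Ctrl, 7.53 to 12.4 FPKM in PBS mice 1 to 5 and 7.12 to 12.8 FPKM in FLX mice. Of the 4 Cyp3a and the 5 steroid synthesis members, 1 each was tested.

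PBS mouse 6 differed from the other 17 mice in most of the expressed P450 genes. Of the 30 members with a mean of 1 FPKM or more, 15 were highest and 7 lowest in it, 73.3% in all, beside 34.7% of 12128 genes at that level. In FLX mouse 5, 30.0% of these members were at an extreme, beside 12.0% of genes, and in Ctrl mouse 3, where 28.7% of genes were at an extreme, no member was. Besides the Cyp4a genes, Cyp2a5, a coumarin hydroxylase, reached 131 FPKM in PBS mouse 6 against 15.6 to 53.4 FPKM in the other mice. Cyp7b1 was at 2.84 FPKM against 31.6 to 99.6 FPKM, Cyp2j5 at 180 FPKM against 377 to 550 FPKM, Cyp2a4 at 47.3 FPKM against 120 to 278 FPKM, and Cyp2c23 at 3.18 FPKM against 7.12 to 12.9 FPKM. The same mouse had the lowest proximal tubule sum, and its adrenal cortex list summed to 53.0 FPKM, of which Akr1b7 gave 50.3 FPKM. Nr5a1, which defines that tissue, was at most 0.0337 FPKM in any mouse, and that was PBS mouse 5. Of the other adrenal cortex markers, Star (1.21 FPKM) and Hsd3b1 (1.02 FPKM) were also highest in PBS mouse 5. Mc2r was highest in PBS mouse 6 and Mrap in FLX mouse 5. The part of these marker levels in the P450 values of PBS mouse 6 was not tested.

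**Figure D4:**
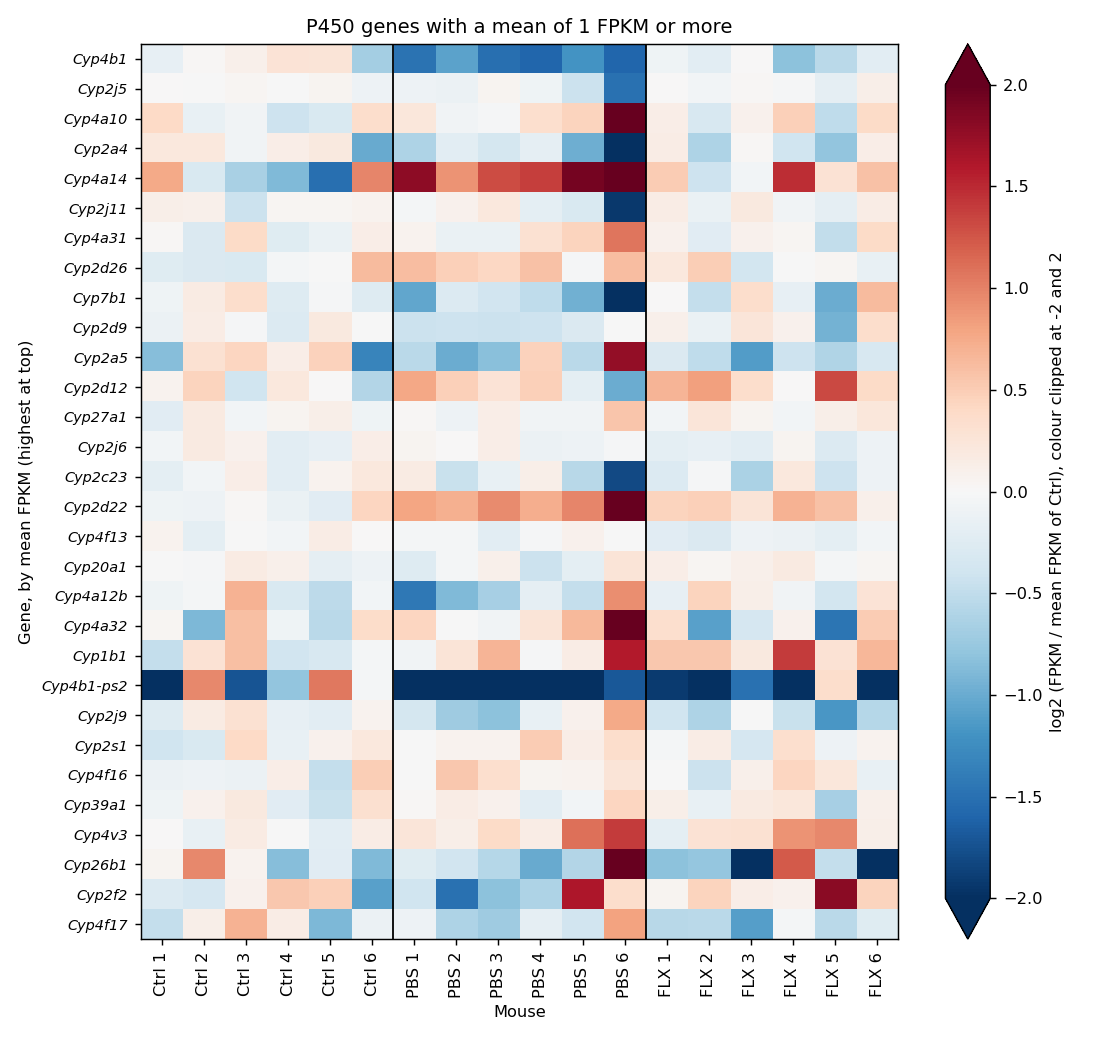
Log2 ratio of FPKM to the mean of the Ctrl mice for the 30 members with a mean of 1 FPKM or more (rows, highest mean at the top) in each of the 18 mice (columns), with the colour clipped at -2 and 2. Cyp4b1 is blue and Cyp2d22 red in every PBS mouse, and PBS mouse 6 has deep colours in many rows.

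Of the list of P450 partners and regulators, 33 of 34 genes were in the table and were tested. In PBS versus Ctrl 4 were higher and 1 lower, beside 2.14% and 1.67% of all genes. In FLX versus PBS 5 were lower, beside 0.420%, and in FLX versus Ctrl 1 was higher and 4 lower, beside 2.08% and 1.59%. Alas1, the first enzyme of heme synthesis, was at 9.61 to 15.5 FPKM in Ctrl mice. PBS mice 1 to 5 were at 23.5 to 84.6 FPKM, and FLX mice at 16.8 to 30.8 FPKM, above every Ctrl mouse. In PBS versus Ctrl it was higher by 2.10 ± 0.30 on the log2 scale (adjusted p = 0.000612, and 0.00142 with all 6 PBS mice). Its values of -1.14 in FLX versus PBS (adjusted p = 0.082) and 0.95 in FLX versus Ctrl (adjusted p = 0.066) did not pass. Tiparp, a target and repressor of the aryl hydrocarbon receptor, was at 4.10 to 7.02 FPKM in Ctrl, 7.87 to 10.03 FPKM in PBS mice 1 to 5 and 5.83 to 6.98 FPKM in FLX mice, and was called higher in PBS versus Ctrl (adjusted p = 0.00135, and 0.0154 with all 6 PBS mice) and lower in FLX versus PBS (adjusted p = 0.0339). The latter call was lost with all 6 PBS mice (adjusted p = 0.157). Cyp51, a sterol demethylase whose name lies outside the rule, rose in PBS versus Ctrl (0.53 ± 0.11, adjusted p = 0.0131) and fell in FLX versus PBS (-0.62 ± 0.11, adjusted p = 0.0157). Both Cyp51 calls were lost with all 6 PBS mice (adjusted p = 0.719 and 0.749), and PBS mouse 6 was at 5.59 FPKM against 64.0 to 94.5 FPKM in the other PBS mice. Cyb5a, which passes electrons to some P450 enzymes, fell in PBS versus Ctrl (-0.51 ± 0.13, adjusted p = 0.0346, and 0.0326 with all 6 PBS mice). Por, P450 oxidoreductase, was at 56.5 to 65.7 FPKM in Ctrl, 57.3 to 71.9 FPKM in PBS mice 1 to 5 and 54.0 to 56.8 FPKM in FLX mice, and fell in FLX versus PBS (-0.32 ± 0.072, adjusted p = 0.0420), a call lost with all 6 PBS mice (adjusted p = 0.256).

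The clock-controlled factors Dbp, Tef and Hlf, which drive several P450 genes in the liver, were lower in FLX than in Ctrl mice. Dbp was at 9.39 to 22.1 FPKM in Ctrl, 3.23 to 23.0 FPKM in PBS mice 1 to 5 and 0.694 to 1.69 FPKM in FLX mice, a log2 fold change of -3.88 ± 0.43 (adjusted p = 0.000147) in FLX versus Ctrl. Tef fell by 0.78 (adjusted p = 0.00140) and Hlf by 0.39 (adjusted p = 0.0404) on the log2 scale, and with all 6 PBS mice in the fit the adjusted p was 0.000451 for Dbp, 0.0121 for Tef and 0.0807 for Hlf, whose call was lost. Relative to PBS mice, Dbp in FLX mice stood at -3.12 ± 0.43 on the log2 scale (adjusted p = 0.00218, and 0.0107 with all 6 PBS mice) and Tef at -0.61 ± 0.12 (adjusted p = 0.0190, lost at 0.109 with all 6). Nfil3, a transcriptional repressor, was at 1.65 to 4.43 FPKM in Ctrl and 5.63 to 10.1 FPKM in PBS mice 1 to 5. FLX mice were at 7.25 to 17.2 FPKM. Nfil3 rose in PBS versus Ctrl (1.74 ± 0.26, adjusted p = 0.000965) and in FLX versus Ctrl (2.40 ± 0.26, adjusted p = 0.000147). When all 6 PBS mice were used, the adjusted p was 0.000785 and 0.000451. These are clock genes, and the sources used here do not give the hour at which each mouse was killed, so hour and group cannot be told apart. Tbxas1, thromboxane synthase, fell in FLX versus Ctrl (-0.68 ± 0.14, adjusted p = 0.0135, and 0.0262 with all 6 PBS mice).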

How the data were processed

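The authors made stranded poly(A) libraries from right kidneys. Reads were trimmed by fastp and mapped by HISAT-3N on GRCm38, and StringTie gave the FPKM. The submitters' processing notes also name cutadapt 1.9, HISAT2 2.0.4, UMI-tools, StringTie 1.3.4d, DESeq2 and edgeR. For every gene and mouse, the authors deposited FPKM beside estimated counts. The counting tool and its strand setting are not given in the sources used here.

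From these, estimated counts were rounded and fitted with edgeR 4.0.16 (TMM, filterByExpr with a minimum count of 10, quasi-likelihood test) in 1 model over the 3 groups, with PBS mouse 6 left out, and Benjamini-Hochberg adjustment over 20251 genes. FPKM gives the levels. Fold changes are on the log2 scale with their SE. The test was run first on simulated data. DESeq2 1.42.0 and limma 3.58.1 (log2 of FPKM + 0.1 or + 1) were alternatives. Shared sequence is the share of 50-base windows of a gene's GENCODE transcripts that occur in another gene's transcripts.

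Members described mouse by mouse were those with an adjusted p under 0.05 in any comparison, with or without PBS mouse 6, and the 10 of highest mean FPKM; of the partners, Por and each gene called were named. Members, lists and tests were chosen with earlier results of these data known. The fits without both fat-rich mice and with all 6 PBS mice in the blocked fit were chosen after the data were seen. Cyp4f14, Cyp2b10, Cyp2d10, Cyp2b23, Cyp2c68, Cyp2a5, Cyp27a1 and Cyp2c23 were named after their values were seen. Replicates are separate mice.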

Additional observations from a re-analysis of the deposited data

Results flagged for a closer look

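Of 42 groups of the 14 members named by call or by level, 11 held a mouse whose gap to its neighbour took an unusually large part of the group's range, and chance flags about 1 in 20 groups. PBS mouse 6 was such a mouse for Cyp4a14 (1357 FPKM, against at most 193 FPKM in the other PBS mice), Cyp4a10 (841 FPKM, against at most 217 FPKM), Cyp2d22 (20.6 FPKM, against at most 8.51 FPKM) and Cyp2d9 (55.1 FPKM, against at most 45.1 FPKM). Ctrl mouse 6 was apart from the other Ctrl mice for Cyp2d22 (5.79 FPKM), Cyp2d26 (94.1 FPKM) and Cyp2a4 (120 FPKM, against 230 FPKM or more). Single mice stood apart for Cyp2j11 in Ctrl mouse 3 (77.4 FPKM), Cyp2d26 in PBS mouse 5 (60.0 FPKM), Cyp4a14 in FLX mouse 4 (142 FPKM) and Cyp4b1-ps2 in FLX mouse 5 (10.2 FPKM).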

How the results depend on the processing

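Cyp4b1 and Cyp2d22 passed in PBS versus Ctrl in all 29 alternatives, with Cyp4b1 between -1.46 and -1.28 and Cyp2d22 between 0.72 and 1.17 on the log2 scale. Cyp4b1 passed in FLX versus PBS in all but 2 of 30: FLX mice 1 and 2 only (adjusted p = 0.137) and without PBS mouse 4. The other calls were less stable: Cyp1a1 lost its call in 3 of 29 alternatives in PBS versus Ctrl and in 15 of 30 in FLX versus Ctrl, Cyp4a14 in 10 of 29, Cyp4b1-ps2 in 7 of 29 and Cyp2d22 in FLX versus PBS in 23 of 30. The cause was not tested.

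The 5 members called in PBS versus Ctrl became 9 with DESeq2, and 3 to 7 when 1 mouse was left out. Shares of all genes are given above for all 6 PBS mice and the study's threshold, but not for the other alternatives of this section. Counts under those alternatives show how the calls depend on processing and are not a result about the members. The count was 3 without Ctrl mouse 2, Ctrl mouse 5, PBS mouse 1 or PBS mouse 4. The 2 called in FLX versus PBS became 1 with all 6 PBS mice, upper-quartile scaling, no filter, limma at either pseudocount, the replicate block, all 6 PBS mice with the block, or without PBS mouse 5 and FLX mouse 5. They became 0 with FLX mice 1 and 2 only, 5 at the study's threshold, and 0 to 2 when 1 mouse was left out (0 without PBS mouse 4). The 1 called in FLX versus Ctrl became 0 with all 6 PBS mice, no filter, only the 2 groups compared, the replicate block with 5 or 6 PBS mice, or FLX mice 1 and 2 only. It became 2 with upper-quartile scaling, limma at a pseudocount of 1 and the study's threshold, 3 with limma at 0.1, 7 with DESeq2, and 0 to 5 when 1 mouse was left out (5 without Ctrl mouse 3).

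For each gene, the group mean was subtracted from the log2 scaled counts of each mouse. The correlation of these deviations between same-numbered mice of different groups was -0.20 to 0.23 over 16 pairs (median -0.031), and over 0.1 in 2. For mice of other numbers it was -0.21 to 0.17 over 80 pairs (median -0.0036), and over 0.1 in 7. Whether same-numbered mice shared handling cannot be told from these values, and the main fit treats the mice as unpaired. With the replicate block 4, 1 and 0 members were called in the 3 comparisons.

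Signs turned only for fold changes that passed no test. For Cyp2j7 in FLX versus PBS (-0.028) the value was 0.073 with all 6 PBS mice, 0.050 with the block added, 0.015 with limma at 1, and -0.23 to 0.14 when 1 mouse was left out. For Cyp2j11 in FLX versus PBS (-0.025) it was 0.16 with all 6 PBS mice, 0.22 with the block added, 0.068 and 0.067 with limma at 0.1 and 1, 0.0050 with FLX mice 1 and 2, and -0.096 to 0.027 with 1 mouse left out. Cyp2j11 gave 0.029 and 0.028 with limma in FLX versus Ctrl, and in PBS versus Ctrl 0.037 without both fat-rich mice and -0.12 to 0.033 with 1 mouse left out. Without both fat-rich mice, Cyp2j5 in FLX versus PBS was -0.023, and in FLX versus Ctrl Cyp4a10 was 0.097, Cyp4a31 0.019, Cyp7b1 0.051 and Cyp2d9 0.062. With 1 mouse left out, these ran from -0.061 to 0.054 for Cyp2j5, -0.080 to 0.097 for Cyp4a10, -0.15 to 0.019 for Cyp4a31, -0.25 to 0.051 for Cyp7b1 and -0.15 to 0.062 for Cyp2d9. In FLX versus Ctrl limma gave 0.074 and 0.074 for Cyp4a10 and 0.076 and 0.075 for Cyp2d26. Cyp2d26 there was 0.32 with FLX mice 1 and 2 only, and -0.13 to 0.14 with 1 mouse left out.

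The filter on low counts left out 27 members, and without it 76 of the 77 were tested. Calls gained in PBS versus Ctrl included Cyp2d26 without Ctrl mouse 6, and Cyp2d9 without FLX mouse 5 and without both fat-rich mice. They also included Cyp2d10 with limma at a pseudocount of 1 and without FLX mouse 5, and Cyp2j7 in 5 of 29 alternatives. In FLX versus Ctrl, Cyp2d22 gained a call as higher in 6 of 30 alternatives, and Cyp2j7 as lower in 6 of 30.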
